A study of Mus musculus with 6 samples.

Results

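The genes described here are those of mitochondrial respiratory complexes II to V and of cytochrome c that are encoded in the nucleus. They were taken by symbol from the deposited gene expression table (the *Sdha* to *Sdhd* genes, *Uqcr* genes, *Cyc1*, *Cycs*, *Cox4* to *Cox8* genes and *Atp5* genes), which gave 47 of the 18169 genes listed. Complex II had 4 of them, complex III 9, cytochrome c 1, complex IV 16 and complex V 17. RNA came from Hepa 1–6 cells, a cell line derived from a mouse hepatoma, that were treated with Shh (sonic hedgehog protein, 3 libraries) or with vehicle (3 libraries), and the comparison asks how the transcripts of this hepatocyte line respond to Shh. All 6 libraries were of the same line with no genetic change named, so they describe a tumor cell line in culture and not liver tissue. No source used here names how much Shh these cells got or for how long. Whether each library stands for its own culture is not stated either, so p-values cover only the variation among these libraries, and that variation could be technical. A design note attached to the series mentions exosomes of mouse livers, while every sample label names the cell line.

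The respiratory chain moves electrons from fuel molecules to oxygen across the inner mitochondrial membrane. Complex II (succinate dehydrogenase) passes electrons from succinate to coenzyme Q, complex III passes them on to cytochrome c, and complex IV (cytochrome c oxidase) hands them to oxygen. Complexes III and IV pump protons, and complex V (ATP synthase) uses the return of those protons to make ATP, which hepatocytes spend on glucose, lipid and urea synthesis. Complex IV is also where several subunits exist as tissue isoforms, with one gene used in most tissues including liver and a second used mainly in heart and skeletal muscle.

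Promoters of many of these genes carry sites for the nuclear respiratory factor Nrf1 and for ETS factors such as Gabpa. Windows of 300 bases, from 250 bases before to 50 bases after a transcript start (RefSeq, build GRCm38.p6), were found for 36 of the 47 genes, in 39 windows, and none was found for *Sdhc*, *Cyc1*, *Uqcrc2*, *Uqcrb*, *Uqcrq*, *Cox4i1*, *Cox4i2*, *Cox6a2*, *Cox6c*, *Atp5a1* and *Atp5mpl*. Each window was searched on both strands and counted once however many matches it held. The Nrf1 core letters GCATGCGC stood in 8 of the 39 windows (20.5%), against 2.71% of all 32851 windows, and the ETS letters CCGGAAG stood in 13 (33.3%), against 8.86% of all windows. The letters AAGATGG, as bound by Yy1, stood in 4 windows (10.3%), against 6.34% of all windows. The Nrf1 letters were in the windows of *Sdhb*, *Uqcrc1*, *Uqcr11*, *Cycs*, *Cox6a1*, *Atp5g2*, *Atp5k* and *Atp5l*. A match is a description of the letters and not a test of binding. The observed over expected ratio of CpG dinucleotides, which is high in the promoters of broadly used genes, had a median of 0.833 in the 39 windows (quartiles 0.688 and 0.972), against 0.384 in all windows (quartiles 0.176 and 0.75). Both the Nrf1 and the ETS letters hold a CpG, and the set of all windows was not matched for CpG content or for expression in these cells. The part of CpG content in the higher shares was not tested.

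The 3 windows shown first are those of an abundant complex IV gene, of cytochrome c and of a c-ring gene of ATP synthase, which hold the Nrf1 letters, and the 4 that follow set liver-type against muscle-type isoforms of complex IV. Sequences run 5′ to 3′ on the strand of the gene, and capitals mark the Nrf1 and ETS letters on either strand, which form a longer run where both orientations overlap.
*Cox6a1* (chr5:115348909-115349208, minus strand): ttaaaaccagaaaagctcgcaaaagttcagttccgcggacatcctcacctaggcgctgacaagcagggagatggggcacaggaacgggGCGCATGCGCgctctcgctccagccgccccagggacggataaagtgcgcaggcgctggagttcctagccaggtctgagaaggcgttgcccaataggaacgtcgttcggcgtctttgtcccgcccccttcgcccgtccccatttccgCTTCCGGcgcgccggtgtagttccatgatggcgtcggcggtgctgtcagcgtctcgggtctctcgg
*Cycs* (chr6:50566520-50566819, minus strand): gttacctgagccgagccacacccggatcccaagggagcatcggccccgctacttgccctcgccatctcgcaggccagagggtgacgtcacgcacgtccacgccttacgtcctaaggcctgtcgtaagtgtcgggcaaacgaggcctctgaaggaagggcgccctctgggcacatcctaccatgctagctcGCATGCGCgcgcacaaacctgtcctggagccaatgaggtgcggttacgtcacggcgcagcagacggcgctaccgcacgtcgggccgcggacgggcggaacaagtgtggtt
*Atp5g2* (chr15:102670998-102671297, minus strand): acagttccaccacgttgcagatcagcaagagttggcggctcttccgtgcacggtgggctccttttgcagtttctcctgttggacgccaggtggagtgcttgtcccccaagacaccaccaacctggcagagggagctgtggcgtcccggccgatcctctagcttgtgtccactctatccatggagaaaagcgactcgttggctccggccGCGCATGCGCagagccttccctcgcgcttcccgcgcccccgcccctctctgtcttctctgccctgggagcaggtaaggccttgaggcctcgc
*Cox7a2* (chr9:79759804-79760103, minus strand): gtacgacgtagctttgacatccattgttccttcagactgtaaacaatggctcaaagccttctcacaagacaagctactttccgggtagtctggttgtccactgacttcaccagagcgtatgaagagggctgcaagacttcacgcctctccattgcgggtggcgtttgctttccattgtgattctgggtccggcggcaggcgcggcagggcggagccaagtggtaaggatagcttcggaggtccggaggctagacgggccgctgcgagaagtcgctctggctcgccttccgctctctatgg
*Cox7a1* (chr7:30183921-30184220, plus strand): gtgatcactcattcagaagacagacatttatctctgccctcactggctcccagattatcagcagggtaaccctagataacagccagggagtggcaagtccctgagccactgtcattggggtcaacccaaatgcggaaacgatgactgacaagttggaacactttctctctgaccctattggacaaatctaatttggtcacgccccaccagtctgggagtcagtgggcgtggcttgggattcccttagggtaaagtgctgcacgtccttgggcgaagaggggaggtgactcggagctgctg
*Cox8a* (chr19:7217567-7217866, minus strand): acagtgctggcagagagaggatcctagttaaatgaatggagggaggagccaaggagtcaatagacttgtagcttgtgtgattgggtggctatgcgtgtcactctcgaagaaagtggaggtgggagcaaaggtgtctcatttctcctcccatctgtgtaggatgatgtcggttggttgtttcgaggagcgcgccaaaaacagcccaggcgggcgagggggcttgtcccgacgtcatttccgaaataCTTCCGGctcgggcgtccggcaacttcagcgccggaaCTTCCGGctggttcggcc
*Cox8b* (chr7:140900397-140900696, minus strand): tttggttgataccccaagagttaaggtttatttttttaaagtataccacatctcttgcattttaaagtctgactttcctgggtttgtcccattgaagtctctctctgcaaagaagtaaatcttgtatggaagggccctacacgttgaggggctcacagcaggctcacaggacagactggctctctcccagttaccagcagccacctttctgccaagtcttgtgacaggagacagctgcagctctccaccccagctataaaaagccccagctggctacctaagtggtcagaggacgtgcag
The muscle-type genes had the CpG-poor windows of each pair. *Cox7a1* held 7 CpG dinucleotides at a ratio of 0.333, against 20 at 0.833 in *Cox7a2*, and *Cox8b* held 2 at 0.115, against 19 at 0.842 in *Cox8a*. A low ratio was not limited to them, as *Cox7b*, an abundant gene here, held 5 at a ratio of 0.368.

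The libraries held 20253781 to 20291075 counts with Shh and 20278619 to 20335463 with vehicle, and the 47 genes together took 1.20%, 1.08% and 1.19% of the counts in Shh replicates 1, 2 and 3, against 1.23%, 1.23% and 1.22% in the vehicle libraries. Hepatocyte markers fitted the label in part, with 484 to 506 FPKM of *Alb* in Shh libraries and 488 to 498 FPKM in vehicle libraries, 186 to 194 FPKM of *Afp* with Shh and 189 to 196 FPKM with vehicle, and *Trf*, *Fgb* and *Hnf4a* at or above 44.3 FPKM. Of the 9 hepatocyte markers, however, *Apoa1* and *Apob* stayed at or below 3.61 FPKM and *Ttr* and *Serpina1a* at or below 0.78 FPKM in every library. Of the 4 fibroblast and stellate cell markers, *Dcn* was as abundant as *Alb*, with 489.7 to 547 FPKM with Shh and 489.9 to 518 FPKM with vehicle, while *Col1a1* was at or below 3.69 FPKM, *Pdgfrb* at or below 0.13 FPKM and *Lrat* at or below 0.01 FPKM. The 4 summed to 494 to 548 FPKM with Shh and 493 to 520 FPKM with vehicle, and their part in the results was not tested. FPKM is the count scaled by transcript length and by the library total. Of 3 Shh response genes, *Gli1* had 0.60 to 0.77 FPKM with Shh, against 0.59 to 0.68 FPKM with vehicle. *Ptch1*, with more counts, had 4.63 to 5.21 FPKM with Shh, against 4.28 to 4.98 FPKM with vehicle, and *Hhip* had at most 3 counts in any library. All 3 overlapped between the groups. Shh replicate 2 stood apart from the other libraries in the genes described here, and Shh replicate 1 lay nearest to vehicle, so results are also given without each of these libraries.

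Of the 47 genes, 44 passed the expression filter of edgeR and were tested together with all other genes (12286 in all), which gives each gene a log2 fold change of Shh over vehicle. None of them passed an adjusted p under 0.05, and neither did any other gene tested in this fit (0% in either direction by edgeR, and 0 members by DESeq2). At an unadjusted p under 0.05, 21 of the 44 were lower with Shh, against 5.56% of all genes, and 0 were higher, against 4.83%. DESeq2 gave 20 lower at that level, against 3.87% of all genes. The fold changes were small and lay mostly on one side: 42 of 44 were below 0, against 48.8% of all genes, and their median was -0.11 on the log2 scale, against 0.00 for all genes tested. In 23 of the 44 all 3 Shh libraries lay below all 3 vehicle libraries, against 8.67% of all genes, and in 0 did all Shh libraries lie above, against 6.79%. In RNA of whole cultures, fewer cells of a type and less RNA per cell cannot be told apart.

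The size of the shift differed between the Shh libraries. Relative to the mean of the vehicle libraries, the median of the 44 genes was -0.04, -0.24 and -0.07 (log2) in Shh replicates 1, 2 and 3, while the vehicle libraries had 0.02, -0.0044 and -0.02. Shh replicate 2 was thus lowest by far, and Shh replicates 1 and 3 were below each vehicle library by a smaller margin. Without Shh replicate 2 the median fold change was -0.06, 38 of 44 genes were below 0 (48.4% of all genes), and 12 were lower at unadjusted p under 0.05 (3.67% of all genes). The groups did not overlap in 23 genes (11.5% of all genes). That count could not fall, because the scaling was kept and leaving out a library cannot make separate groups overlap. Without Shh replicate 1 the median was -0.16, 27 were below vehicle at that level (10.4% of all genes), and 2 genes, *Cox4i1* and *Cox6a1*, passed the adjusted threshold (0.686% of all genes). Leaving out other libraries, 0 members passed the adjusted threshold, and the number lower at unadjusted p under 0.05 was 21 without Shh replicate 3 (5.36% of all genes), 7 without vehicle replicate 1 (2.58%), 12 without vehicle replicate 2 (2.93%) and 14 without vehicle replicate 3 (4.34%). With fewer libraries groups without overlap are commoner among all genes too, and such members numbered 30 without Shh replicate 1 (18.8% of all genes), 28 without Shh replicate 3 (13.5%), 23 without vehicle replicate 1 (12.2%), 25 without vehicle replicate 2 (12.2%) and 26 without vehicle replicate 3 (15.4%).

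**Figure D1:**
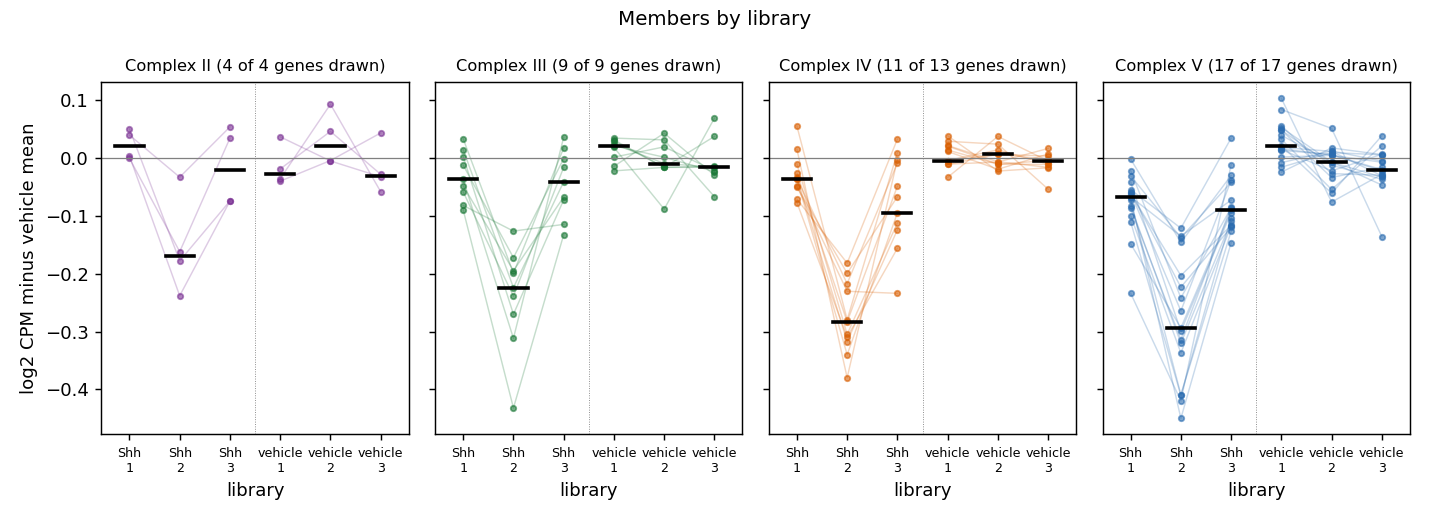
Level of each tested gene in each library, as log2 CPM (TMM-scaled counts, relative to the library total) minus the mean of the vehicle libraries, with 1 panel per complex. Points are genes, thin lines join a gene within a group, and black bars are medians over all tested genes of the complex, including *Cox7a1* and *Cox8b*, whose points are not drawn because they fall off the axis. Shh replicate 2 is the lowest library in each complex, at -0.17 for complex II and -0.29 for complex V.

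The shift also followed the length of the transcripts. The length behind each gene's counts, recovered from counts and FPKM, had a median of 656.8 bases among the 44 genes, against 2690.1 bases among all genes tested, as most subunits are small proteins. Across the 44 genes length and fold change had a Spearman correlation of 0.61, and across 11471 genes with a length it was 0.54. These points share the same 6 libraries, so the correlations are given as descriptions. After an offset that removes a smooth trend with length from each library, the correlation over the 44 genes was -0.04, the median fold change was -0.03, 30 of 44 genes were below 0 (52.1% of all genes) and 2 of them, *Uqcrh* and *Cox4i1*, were lower at unadjusted p under 0.05 (3.48% of all genes). The offset was fitted over all tested genes with a length, the 44 included, so it also removes a shift that short genes share for another reason. An effect of length and such a shared shift cannot be told apart here. The part of transcript length in the fold changes given below was not tested beyond this offset, and no measure of RNA quality was used here.

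**Figure D2:**
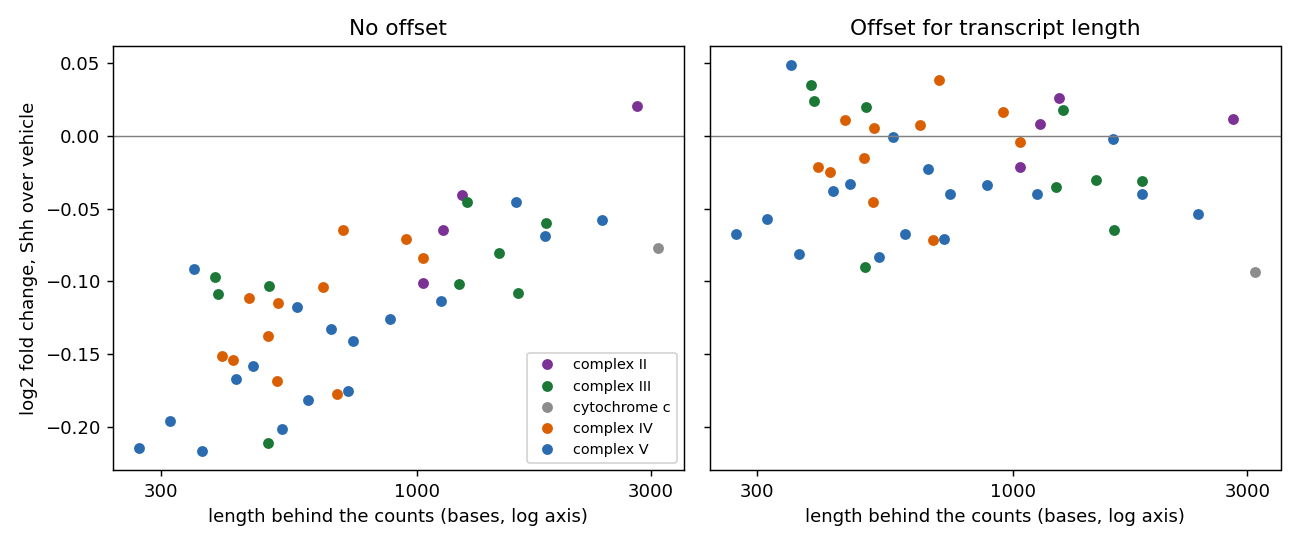
Log2 fold change (Shh over vehicle) of the tested genes against the length behind their counts in bases (log axis), colored by complex, without an offset (left) and with an offset for transcript length (right). *Cox7a1* and *Cox8b* fall off the axis and are not drawn. On the left the shortest genes of complex V lie near -0.2 and *Sdha* lies at 0.02, and on the right the Spearman correlation with length is -0.04.

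Complexes IV and V, which have the shorter transcripts, had the lower medians. The median fold change was -0.05 in complex II (4 genes, median length 1183.5 bases), -0.10 in complex III (9 genes, 1222 bases), -0.11 in complex IV (13 genes, 518 bases) and -0.14 in complex V (17 genes, 601.1 bases). All 17 genes of complex V and all 9 of complex III were below 0, as were 12 of 13 in complex IV and 3 of 4 in complex II. Groups without overlap were found in 13 of the 17 genes of complex V, 7 of 13 in complex IV, 3 of 9 in complex III and 0 of 4 in complex II, against 8.67% of all genes. With the length offset the medians came to 0.01, -0.03, -0.004 and -0.04 for complexes II, III, IV and V. Below 0 were then 16 of the 17 complex V genes, 7 of 13 in complex IV, 5 of 9 in complex III and 1 of 4 in complex II. The share among all genes was 52.1%. With that offset 0 of the complex V genes were lower at unadjusted p under 0.05, against 3.48% of all genes. No test was made between complexes, because genes of a complex are not replicates of a condition.

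**Figure D3:**
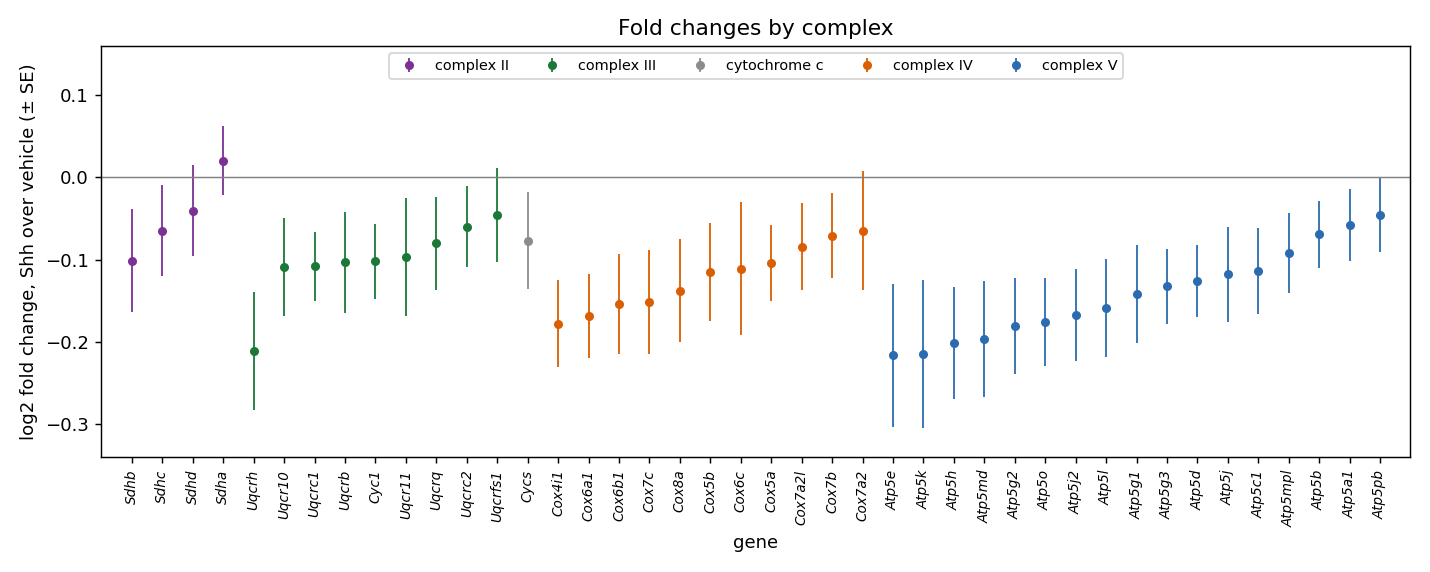
Log2 fold change of Shh over vehicle for 42 of the 44 tested genes, grouped by complex and ordered within it, where bars are standard errors from edgeR. *Cox7a1* at -0.76 and *Cox8b* at 0.27 lie off the axis. *Sdha* is the single gene drawn above 0, and *Atp5e* is the lowest at -0.22.

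Complex II was the smallest group, with no gene set apart between the groups. *Sdha*, the flavoprotein that oxidizes succinate, had 183, 174 and 185 CPM in Shh libraries, against 173, 177 and 183 CPM in vehicle libraries, where CPM is the count relative to the TMM-scaled library total. The groups overlapped, and its log2 fold change was 0.02 ± 0.04 (standard error, adjusted p = 0.886 from edgeR). *Sdhb*, the iron-sulfur subunit that takes electrons from it, had 98.5, 83.3 and 93.3 CPM with Shh, against 95.8, 105 and 94.3 CPM with vehicle. Shh replicate 2 was lowest and vehicle replicate 2 highest, and the fold change was -0.10 ± 0.06. The membrane anchors *Sdhc* and *Sdhd*, which hold the coenzyme Q site, had fold changes of -0.06 ± 0.05 and -0.04 ± 0.06, and both turned above 0 with the length offset. *Sdhd* also turned above 0 without Shh replicate 2, at 0.02.

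Complex III had its largest difference in *Uqcrh*, the hinge protein that joins cytochrome c1 with cytochrome c. *Uqcrh* had 128, 101 and 124 CPM in Shh libraries, against 139, 135 and 135 CPM in vehicle libraries. All Shh libraries were below all vehicle libraries, with Shh replicate 2 far below the others, and the fold change was -0.21 ± 0.07 (adjusted p = 0.469 from edgeR). With the length offset it was -0.09. *Uqcrh* is one of the genes with named pseudogenes, whose reads could be shared, and its deposited counts were whole in every library. *Uqcrc1*, a core protein of the matrix side, had 192, 187 and 188 CPM with Shh, against 209, 208 and 194 CPM with vehicle, with no overlap and little spread among the Shh libraries, and a fold change of -0.11 ± 0.04. *Cyc1*, the cytochrome c1 heme protein, had 259, 234 and 255 CPM with Shh, against 273, 264 and 265 CPM with vehicle, at -0.10 ± 0.05. *Uqcr10*, a small subunit, was at -0.11 ± 0.06 with overlapping groups. *Uqcrfs1*, the Rieske iron-sulfur protein, was the complex III member nearest to 0 at -0.05 ± 0.06, and turned to 0.03 without Shh replicate 2. The remaining subunits *Uqcrc2*, *Uqcrb*, *Uqcrq* and *Uqcr11* lay between -0.10 and -0.06 with overlapping groups. Of the complex III genes, *Uqcr10*, *Uqcrfs1*, *Uqcrb* and *Uqcr11* turned above 0 with the length offset, at 0.02 to 0.04.

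*Cycs*, the mobile cytochrome c that carries electrons between complexes III and IV, had 421, 363 and 438 CPM in Shh libraries, against 433, 420.3 and 436 CPM in vehicle libraries. Shh replicate 2 alone lay outside the vehicle range on the low side and Shh replicate 3 lay just above it, and the fold change was -0.08 ± 0.06. With 3105 bases it was the longest gene of the set, and its value hardly moved with the length offset, at -0.09. Without Shh replicate 2 it was -0.0012. *Cycs* has 3 named pseudogenes, and its counts were not whole in any of the 6 libraries.

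In complex IV the genes with the smallest p of all 44 were found. *Cox4i1*, the general isoform of the regulatory subunit 4, had 473, 403 and 448 CPM in Shh libraries, against 496, 502 and 500.5 CPM in vehicle libraries. The vehicle libraries lay close together, all Shh libraries were lower, and the fold change was -0.18 ± 0.05 (adjusted p = 0.469 from edgeR). *Cox6a1*, the general isoform of subunit 6a, had 506, 446 and 445 CPM with Shh, against 531, 519 and 519 CPM with vehicle, so here Shh replicate 3 was as low as Shh replicate 2. Its fold change was -0.17 ± 0.05. Without Shh replicate 1 both genes passed the adjusted threshold, *Cox4i1* at -0.23 (adjusted p = 0.0462 from edgeR) and *Cox6a1* at -0.23 (adjusted p = 0.0354 from edgeR), but with the length offset and without that library neither did.

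*Cox6b1*, which bridges the monomers of the dimeric enzyme, had 245, 201 and 229.9 CPM in Shh libraries, against 257, 247 and 248 CPM in vehicle libraries, and *Cox7c*, a small membrane subunit, had 308, 249.8 and 296 CPM with Shh, against 315, 319 and 314 CPM with vehicle. Neither gene overlapped between the groups, and both were at -0.15 ± 0.06. *Cox5a* and *Cox5b*, the matrix-facing subunits, also did not overlap, at -0.10 ± 0.05 and -0.11 ± 0.06. *Cox6c* had 384, 292 and 379 CPM with Shh, against 384, 377 and 379 CPM with vehicle, at -0.11 ± 0.08, and Shh replicate 2 alone lay below the vehicle libraries. *Cox8a*, *Cox7a2l*, *Cox7b* and *Cox7a2* overlapped between the groups and lay between -0.14 and -0.06. The genes *Cox5a*, *Cox5b*, *Cox6c*, *Cox7a2* and *Cox7b* turned above 0 with the length offset, at 0.0076, 0.0053, 0.01, 0.04 and 0.02.

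Liver-type isoforms were far more abundant than their muscle-type partners in every library. Per length, *Cox6a1* had 972, 882 and 863 FPKM in Shh libraries and 1012, 993 and 997 FPKM in vehicle libraries. *Cox6a2*, the isoform of heart and skeletal muscle, had 6, 2 and 1 counts with Shh, against 1, 1 and 1 counts with vehicle (at most 0.48 FPKM), and was not tested. *Cox4i2*, an isoform of subunit 4 known from lung, had 2, 0 and 3 counts with Shh, against 2, 1 and 1 with vehicle, while *Cox4i1* had 602 to 729 FPKM. *Cox7b2*, a second isoform of subunit 7b, had 2, 2 and 1 counts with Shh, against 0, 1 and 0 with vehicle, while *Cox7b* had 146 to 166 FPKM. These 3 genes are the ones that did not pass the filter, with highest counts of 6, 3 and 2. *Cox6b2* and *Cox8c* and the 6 subunits encoded in mitochondrial DNA were not found by symbol among the genes listed, so they were not analysed here.

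The muscle-type isoforms *Cox7a1* and *Cox8b* passed the filter at low levels. *Cox7a1* had 5, 13 and 10 counts in Shh libraries, against 13, 17 and 17 counts in vehicle libraries (0.78, 2.02 and 1.56 FPKM with Shh, against 2.02, 2.64 and 2.64 FPKM with vehicle). Shh replicate 1 was lowest, and after scaling all Shh libraries lay below all vehicle libraries, Shh replicate 2 narrowly so. The fold change was -0.76 ± 0.37 (adjusted p = 0.491 from edgeR), the largest of the set and the least precise but for *Cox8b*. *Cox8b* had 23, 11 and 4 counts with Shh, against 9, 12 and 10 counts with vehicle. Its Shh libraries lay on both sides of the vehicle libraries, and its fold change was 0.27 ± 0.51, which turned to -0.49 without Shh replicate 1. The liver-type partners had 116, 95.04 and 114 FPKM with Shh, against 108, 114 and 111 FPKM with vehicle, for *Cox7a2*, and 950.1, 797 and 893 FPKM with Shh, against 968, 967 and 920.2 FPKM with vehicle, for *Cox8a*.

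The ratio of 2 isoforms was tested by an exact two-sided permutation of the libraries, which with 3 against 3 cannot go below p = 0.1. Of 7 pairs, 3 had both genes tested. The log2 ratio of *Cox7a1* over *Cox7a2*, per length, was -6.01 ± 0.70 in Shh libraries and -5.35 ± 0.17 in vehicle libraries (SD, n = 3 each, exact permutation p = 0.2, adjusted p = 0.6). The Shh libraries had -6.74, -5.35 and -5.93 and the vehicle libraries -5.54, -5.27 and -5.24, so Shh replicate 2 lay within the vehicle range and the difference of -0.65 was smaller than the spread of the Shh libraries. *Cox8b* over *Cox8a* was -8.80 ± 1.00 with Shh and -8.95 ± 0.18 with vehicle (SD, n = 3 each, exact permutation p = 0.8, adjusted p = 0.8). *Cox7a2l*, a paralog linked to the joining of complexes III and IV into supercomplexes, over *Cox7a2* was 0.60 ± 0.08 with Shh and 0.62 ± 0.05 with vehicle (SD, n = 3 each, exact permutation p = 0.8, adjusted p = 0.8). No pair differed between the groups beyond the spread of its libraries.

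**Figure D4:**
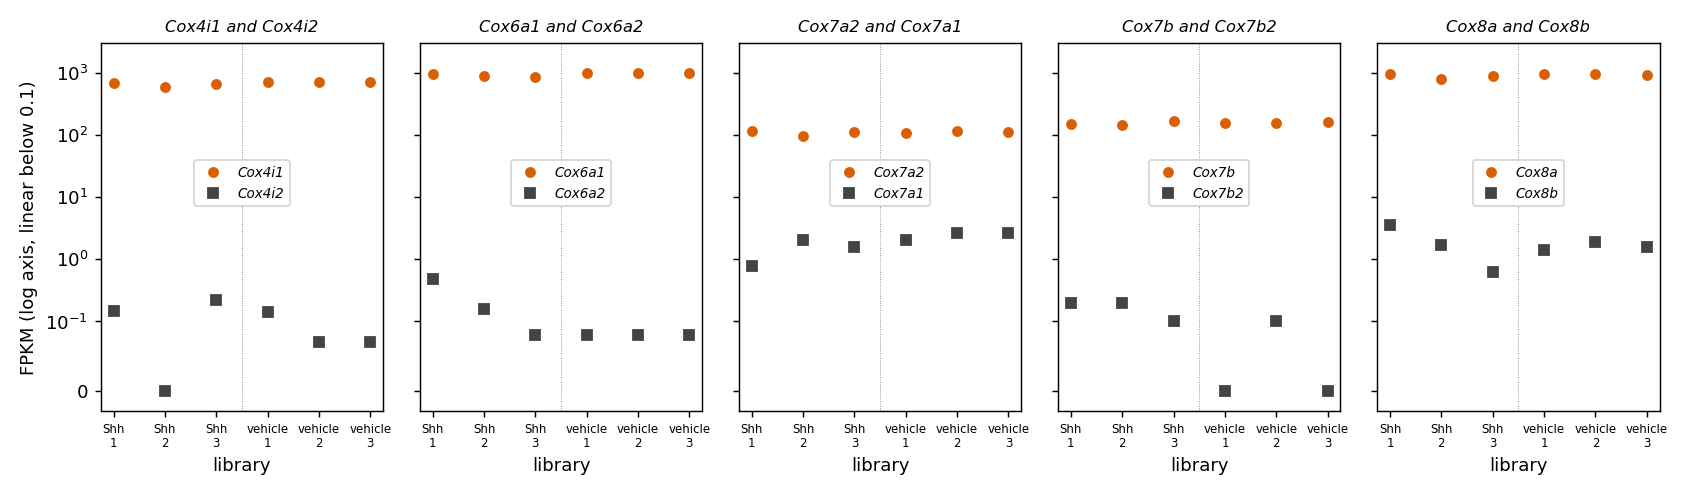
FPKM of 5 pairs of complex IV isoforms in each library, on a logarithmic axis that is linear below 0.1, with the liver-type or general isoform as circles and the muscle-type or second isoform as squares. Circles lie between 95.04 and 1012 FPKM and squares at or below 3.61 FPKM in every library.

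Most markers of muscle and some of brown fat were highest in the same library as *Cox6a2* and *Cox8b*, all of these at low levels. Of the 10 markers of heart and skeletal muscle, 7 had their highest value in Shh replicate 1, among them *Acta1* with 1.01, 0.28 and 0.17 FPKM in Shh libraries, against 0.21, 0.24 and 0.07 FPKM in vehicle libraries, and *Ckm* with 0.65, 0.14 and 0.07 FPKM, against 0.18, 0.11 and 0 FPKM. *Cox7a1*, by contrast, was lowest in that library. The summed level of the 10 markers was 36.3 to 43.1 FPKM with Shh and 41.5 to 43.0 FPKM with vehicle. Nearly all of it was *Tnnt2*, which was not highest in Shh replicate 1. *Myh7* and *Myl2* had at most 3 counts in any library. Of the 4 brown fat markers, *Ucp1* and *Cidea* were highest in Shh replicate 1, while *Elovl3* and *Prdm16* were not. *Cidea* was so only narrowly, with 33 counts, against 32 in vehicle replicate 2. The 4 summed to 0.90 to 2.90 FPKM with Shh, against 0.79 to 2.46 FPKM with vehicle. All 4 macrophage markers were highest in Shh replicate 1 as well. *Cd68* was so only narrowly, with 310 counts, against 290 in vehicle replicate 2, and *Adgre1* had 9 counts there. Of the 4 fibroblast and stellate cell markers, *Col1a1* and *Pdgfrb* were highest in that library, while *Dcn* and *Lrat* were not. The 6 testis markers, of which 4 were listed, summed to at most 0.34 FPKM. The part of these markers in the isoform counts was not tested.

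Complex V had the most genes below 0, in every part of the enzyme. The F1 head, where ATP is made, had a median fold change of -0.11 (5 genes). Its catalytic subunit *Atp5b* was the most abundant gene of the set per length, with 1231, 1176 and 1232 FPKM in Shh libraries, against 1240, 1261 and 1251 FPKM in vehicle libraries. The groups did not overlap, but the fold change was only -0.07 ± 0.04. *Atp5e*, the small epsilon subunit, had 67.1, 51.5 and 63.6 CPM with Shh, against 74.6, 72.9 and 64.1 CPM with vehicle, at -0.22 ± 0.09. Shh replicate 1 exceeded vehicle replicate 3, so these groups overlapped. *Atp5d* and *Atp5c1*, of the central stalk, were at -0.13 ± 0.04 and -0.11 ± 0.05 without overlap, and *Atp5a1*, the alpha subunit, was at -0.06 ± 0.04 with overlap.

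The c ring, which turns as protons pass, is encoded by *Atp5g1*, *Atp5g2* and *Atp5g3*, which give the same mature protein with different targeting peptides. The 3 genes had like levels per length, from 281 to 346 FPKM for *Atp5g1*, 283 to 356 FPKM for *Atp5g2* and 417 to 475 FPKM for *Atp5g3*. *Atp5g2* had 196, 166 and 193 CPM in Shh libraries, against 217, 208 and 204 CPM in vehicle libraries, and its fold change was -0.18 ± 0.06 (adjusted p = 0.469 from edgeR). *Atp5g1* had 243, 203 and 234 CPM with Shh, against 259, 245 and 244 CPM with vehicle, at -0.14 ± 0.06. *Atp5g3* had 305, 273 and 293 CPM with Shh, against 322, 319 and 313 CPM with vehicle, at -0.13 ± 0.05. None of the 3 overlapped between the groups, and with the length offset their median was -0.04.

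The peripheral stalk, which keeps the F1 head from turning, held the complex V gene with the smallest p. *Atp5o*, the OSCP subunit at its top, had 125, 113 and 130.4 CPM in Shh libraries, against 144, 138 and 134 CPM in vehicle libraries, without overlap and with a fold change of -0.18 ± 0.05 (adjusted p = 0.469 from edgeR). *Atp5h*, subunit d, had 182, 148 and 183 CPM with Shh, against 199, 194 and 198 CPM with vehicle, at -0.20 ± 0.07. Shh replicates 1 and 3 were nearly equal and below every vehicle library, and Shh replicate 2 was lower still. *Atp5j*, subunit F6, was at -0.12 ± 0.06 without overlap. Its gene model overlaps that of *Gabpa*, and the sources used here do not say that strand was used in counting. *Atp5pb*, subunit b, had 312, 298 and 332 CPM with Shh, against 319, 328 and 326 CPM with vehicle, so that Shh replicate 3 was the highest library of all. This gene was the member of complex V nearest to 0 at -0.05 ± 0.04. It has 1 named pseudogene, and its counts were not whole in any of the 6 libraries.

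The small membrane subunits around the c ring had the shortest transcripts (median 351.1 bases) and the lowest median, -0.17. *Atp5j2*, subunit f, had 278, 235 and 272 CPM in Shh libraries, against 297, 295 and 289.9 CPM in vehicle libraries, at -0.17 ± 0.06 without overlap. *Atp5md*, the DAPIT protein linked to dimers of the enzyme, had 260.2, 206 and 251 CPM with Shh, against 283, 267 and 271 CPM with vehicle, at -0.20 ± 0.07. *Atp5k*, subunit e, had 26.0, 22.8 and 30.3 CPM with Shh, against 32.8, 29.0 and 30.0 CPM with vehicle, and was at -0.21 ± 0.09 with overlapping groups. It has 4 named pseudogenes, the most of any member, and its counts were whole in every library. *Atp5l*, subunit g, was at -0.16 ± 0.06 and *Atp5mpl*, a small proteolipid, at -0.09 ± 0.05, both without overlap. With the length offset the median of these 5 genes was -0.04, and *Atp5mpl* turned to 0.05, the single complex V gene above 0.

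Factors that assemble the complexes help to build them without being part of the finished enzyme, and with all 6 libraries none of them passed the adjusted threshold. Of the 24 assembly and cofactor genes of complex IV that were tested, 4 were lower and 0 higher at unadjusted p under 0.05 (5.56% and 4.83% of all genes), 18 were below 0, and the median was -0.10. After the length offset 1 of the 24 was lower (3.48% of all genes), 14 were below 0 and the median was -0.03, and without Shh replicate 2 the median was -0.01. The smallest p were those of *Coa3*, an early assembly factor of complex IV, with 30.6, 27.97 and 29.3 FPKM in Shh libraries, against 35.1, 34.8 and 33.5 FPKM in vehicle libraries (log2 fold change -0.26), of *Ndufa4*, which is now counted as a subunit of complex IV, at -0.18 and of *Cox14* at -0.18. Without Shh replicate 1 *Coa3* passed the adjusted threshold (log2 fold change -0.30, adjusted p = 0.0499 from edgeR, against 0.686% of all genes), and with the length offset it was at -0.15 (adjusted p = 0.81 from edgeR). Of the complex II factors 1 of 4 was lower at that level, *Sdhaf4* at -0.29 with 14.2, 12.1 and 11.1 FPKM with Shh, against 14.0, 15.4 and 15.6 FPKM with vehicle. Of the 6 complex III factors *Uqcc2* was lower, at -0.16, and *Ttc19* higher, at 0.11. Of the 5 complex V factors 0 were lower or higher at that level, with a median of -0.05. With the length offset 0 genes of these 3 lists were lower or higher at that level, and the medians were -0.06, 0.01 and 0.03 for complexes II, III and V.

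Genes around the chain had medians nearer to 0 than the -0.11 of the 44 members, but their transcripts were longer (median lengths of 1416.5 to 3687 bases). The transport genes, at -0.06, were not nearer to 0 than complex II at -0.05. Of the 18 genes that feed or make coenzyme Q, 2 were lower at unadjusted p under 0.05 (5.56% of all genes), *Etfb*, which carries electrons from fatty acid oxidation, at -0.14 and *Coq6*, of coenzyme Q synthesis, at -0.19, with a median of -0.03. With that offset 0 of the 18 were lower (3.48% of all genes) and the median was -0.01. Of the 6 tested genes of ADP, ATP and phosphate transport, all were below 0 at a median of -0.06. They are the carriers *Slc25a3*, *Slc25a4* and *Slc25a5* and the outer membrane pores *Vdac1*, *Vdac2* and *Vdac3*. At unadjusted p under 0.05, 0 of them were lower, against 5.56% of all genes. Their median was -0.01 with the length offset. *Slc25a4*, the ADP and ATP carrier of heart and muscle, had 38, 3 and 1 counts with Shh, against 11, 20 and 15 counts with vehicle, and its fold change of -0.15 came to -2.89 without Shh replicate 1, where it passed the adjusted threshold (adjusted p = 0.0468 from edgeR, against 0.686% of all genes). It was highest in Shh replicate 1, as were most muscle markers. *Slc25a3*, the phosphate carrier, had 483, 477 and 471 FPKM with Shh, against 488, 497 and 483 FPKM with vehicle, with the groups barely separate. Of the 13 genes that control transcription of respiratory genes, 4 were below 0, 0 were lower or higher at unadjusted p under 0.05 (5.56% and 4.83% of all genes), and the median was 0.03. *Nrf1*, named for the promoter letters searched above, had 20.0, 18.9 and 20.8 FPKM with Shh, against 20.5, 18.7 and 19.5 FPKM with vehicle (log2 fold change 0.02). *Gabpa*, which binds the ETS letters, had 9.53, 11.3 and 10.8 FPKM with Shh, against 8.87, 9.37 and 10.4 FPKM with vehicle (log2 fold change 0.11). Both factors overlapped between the groups. The median length of these 13 genes was 3687 bases, against 656.8 bases for the subunits.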

How the data were processed

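RNA of Hepa 1–6 cells was purified on oligo(dT) beads, fragmented, primed with random hexamers and sequenced by the authors as single-end reads. The authors deposited estimated counts per gene for 18169 genes, with 36.4% of nonzero values not whole, and also deposited FPKM, scaled by length and total. The submitters' processing notes name Bowtie2, while for the counting tool, genome build and annotation the sources used here give nothing. A further 6 per-sample TPM columns and 6 columns of the authors' group means were not used.

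Estimated counts were rounded and tested in R 4.3.3 with edgeR 4.0.16 over all genes (TMM, minimum count 10, minimum total 15, quasi-likelihood test with a group term), with Benjamini-Hochberg adjustment at 0.05. Standard errors were derived from the quasi-likelihood F statistic. Length was recovered where FPKM was at least 0.5, and the length offset was a spline with 5 degrees of freedom per library. Isoform log2 ratios used counts per length with a prior count of 2. Gene IDs of all 47 members were found in RefSeq, where 16 overlap another gene model and 8 have a named pseudogene, and 9 had counts that were not whole. Other settings were upper-quartile factors, DESeq2 1.42.0, genes unfiltered, at least 5 CPM in 3 libraries, the replicate number as a block, the length offset, both together, and leaving out each library. The length offset without Shh replicate 1 or 2 and the overlap counts without a library were added later, once the data were known. The fit was also run on simulated counts with known changes, whose outcome is not given here and is not used as support.

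Members and gene lists were chosen with earlier results of these data known. Named with values were, in each complex, the 4 members with the smallest p and the one with the highest fold change, all isoform genes, untested members, and up to 3 genes of each other list. *Atp5g1*, *Atp5g3*, *Atp5b*, *Atp5e*, *Atp5k*, *Atp5md*, *Cycs*, *Cox6c*, *Nrf1*, *Slc25a4*, *Acta1*, *Ckm* and the other members given only by fold change were added after their values were seen.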

Additional observations from a re-analysis of the deposited data

How the results depend on the processing

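The number of members past an adjusted p under 0.05 was 0 in all alternatives across the 6 libraries, and 0 to 2 with a library left out, the 2 being without Shh replicate 1. It is 21 at an unadjusted p under 0.05. The median fold change stayed below 0 throughout, from -0.16 to -0.06 with a library left out, but moved to -0.03 with the length offset, to -0.0137 with that offset and without Shh replicate 2, and to -0.03 (-0.028) with the replicate block and the length offset together. With the replicate block alone it was -0.11, and 0 members passed. In that fit 24 members were lower at unadjusted p under 0.05, against 747 of all 12286 genes. Libraries with the same number had correlations of -0.03, -0.05 and 0.09 in their deviations from the group means. Shh replicate 1 correlated best with vehicle replicate 2 (0.21). With 3 libraries per group these values cannot show whether samples with the same number were handled together. The count of members without overlap was 23 to 30 with a library left out, where 11.5% to 18.8% of all genes had none. It cannot fall below the 23 of all 6 libraries, because leaving out a library cannot make separate groups overlap. These counts therefore do not show how far that result depends on a library. Among isoform ratios, *Cox8b* over *Cox8a* ranged from -0.2987 to 0.6859 with a library left out, *Cox7a2l* over *Cox7a2* from -0.0545 to 0.022 and *Cox7a1* over *Cox7a2* from -0.9838 to -0.2862.

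Fold changes that took the other sign were at most 0.0804 from 0 in every member but *Cox8b*, which has few counts. With the length offset 12 of the 44 members turned, all above 0, to 0.0082 for *Sdhc*, 0.0258 for *Sdhd*, 0.0177 for *Uqcrfs1*, 0.02 for *Uqcrb*, 0.0236 for *Uqcr10*, 0.0352 for *Uqcr11*, 0.0076 for *Cox5a*, 0.0053 for *Cox5b*, 0.011 for *Cox6c*, 0.0385 for *Cox7a2*, 0.0163 for *Cox7b* and 0.0485 for *Atp5mpl*. With the replicate block as well the same 12 turned, to 0.0081, 0.0253, 0.0168, 0.0203, 0.0236, 0.0339, 0.0076, 0.005, 0.0089, 0.0378, 0.0152 and 0.0482 in that order of genes. With the offset and without Shh replicate 2, 16 turned, to 0.0007 for *Sdhb*, 0.0219 for *Sdhc*, 0.0473 for *Sdhd*, 0.0023 for *Uqcrc2*, 0.0544 for *Uqcrfs1*, 0.0154 for *Uqcrb*, 0.0079 for *Uqcrq*, 0.0217 for *Uqcr10*, 0.0569 for *Uqcr11*, 0.0163 for *Cox5b*, 0.0615 for *Cox6c*, 0.0804 for *Cox7a2*, 0.0157 for *Cox7a2l*, 0.023 for *Cox7b*, 0.0085 for *Atp5pb* and 0.0033 for *Atp5j*. With the offset and without Shh replicate 1, 12 turned, to 0.0382 for *Sdhd*, 0.0092 for *Uqcrfs1*, 0.0281 for *Uqcrb*, 0.0265 for *Uqcr11*, 0.0152 for *Cox5a*, 0.0121 for *Cox7a2*, 0.0068 for *Cox7a2l*, 0.0517 for *Cox7b*, 0.0264 for *Atp5pb*, 0.0024 for *Atp5j* and 0.056 for *Atp5mpl*, besides *Cox8b* at -0.3258. With a library left out and no offset, 4 members turned without Shh replicate 2, and *Cox8b* turned without Shh replicate 1: *Sdhd* ranged from -0.0798 to 0.0168, *Uqcrfs1* from -0.087 to 0.0252, *Cox6c* from -0.1791 to 0.0062, *Cox7a2* from -0.1284 to 0.0321 and *Cox8b* from -0.4888 to 0.6875. Other alternatives turned 0 members. The causes of these turns were not tested beyond the offset itself.

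Of the 44 tested members, 42 had at least 100 counts in every library. *Cox7a1*, *Cox8b* and the 3 untested genes are limited by their counts.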
